A study of Mus musculus with 20 samples.

Results

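The genes described here are 32 genes of mitochondrial fatty acid oxidation and of the lipid droplet, taken by their mouse symbols from the 56941 gene rows of a count table of soleus muscle. The soleus is a hind-limb muscle rich in slow, oxidative fibres, and every library came from C57BL/6J mice. The 10 control libraries came from sham-irradiated mice. The 10 other libraries, labelled space, came from mice that had 14 days of hind-limb unloading, ionizing radiation and a stress hormone given with the diet. Each group had 10 mice, and the whole soleus of 1 hind limb was used. The labels give no hormone name, dose, age or sex, and the 3 exposures were always given together, so their effects cannot be told apart.

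Long-chain fatty acids released from lipid droplets enter mitochondria as carnitine esters. Inside, a repeating cycle of 4 reactions (dehydrogenation, hydration, a second dehydrogenation and thiolysis) shortens the acyl chain and yields acetyl-CoA. Electrons from the first step pass through the electron transfer flavoprotein to the respiratory chain. In resting and endurance muscle this route supplies much of the fuel, and slow fibres hold more of its enzymes than the fastest fibres do.

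Read counts summed to 17336017 to 43424464 per library. All 32 genes were in the table and passed the filter on low counts, among 16778 genes tested with edgeR's quasi-likelihood test. Levels are given as CPM, counts scaled by the TMM-adjusted library total. The 7 skeletal muscle markers summed to at least 184767 CPM in every library, and 2 of them fell and 3 rose. Most of that sum was *Ttn*, named for its share, with means of 191420 CPM in controls and 196223 CPM in space libraries. Slow fibre markers summed to 23242 to 31938 CPM in controls and 8348 to 18088 CPM in space libraries, and all 8 fell, while all 9 fast fibre markers rose. Space replicates 1 to 4 stood apart. Their nerve and Schwann cell markers summed to 530.2 to 1526 CPM, against 99.9 to 200.3 CPM in controls and 100.3 to 190.5 CPM in space replicates 5 to 10, and all 10 of those markers that were tested rose in the full comparison. Their 12 adipocyte markers summed to 222.7 to 490.7 CPM, against 38.9 to 239.3 CPM in controls and 45.5 to 217.2 CPM in the other space libraries, and 3 of the 11 tested rose. None of the nerve or adipocyte markers was at 0 in all libraries of a group. Tendon and fibroblast markers summed to 706.5 to 1781 CPM in controls and 493.8 to 779.9 CPM in space libraries, and 6 of 8 fell and 2 rose. Of 9 endothelial markers, 4 fell and 1 rose. Of all tested genes 28.9% fell and 28.7% rose, so the 3 of 11 adipocyte markers that rose were near that share. The part of these cells in the results was not tested, and main results are given with and without those 4 libraries.

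Fatty acid oxidation genes were lower in the space libraries at nearly every step of the route. Of the 32 genes, 26 fell at a Benjamini-Hochberg adjusted p under 0.05, where 28.9% of all tested genes fell. None rose, where 28.7% of all tested genes rose and 57.6% changed in either direction, and none had a higher level at an unadjusted p under 0.05. DESeq2 and limma-voom also called none of them higher. *Plin4* alone was called higher with upper-quartile scaling (edgeR adjusted p = 0.0263) or library size alone (edgeR adjusted p = 0.0158). It was also called higher with the sample number as a replicate block (edgeR adjusted p = 0.0476). The median log2 fold change was -0.64 over the 32 genes and 0.02 over all tested genes. In 14 genes every space library lay below every control library, against 11.0% of all tested genes, and in none was every space library above every control, against 6.48%. The 7 genes that fell at least 2-fold, against 3.37% of all tested genes, were *Acot2*, *Plin5*, *Mgll*, *Acaa2*, *Hadhb*, *Hadh* and *Eci1*. The 6 genes that did not pass the test were *Acad9*, *Eci2*, *Ucp3*, *Plin4*, *Pnpla2* and *Lipe*. Without space replicates 1 to 4, 24 genes fell, where 26.1% of all tested genes did, none rose, where 25.2% did, and the median was -0.53. In a bulk sample, less RNA per fibre and fewer fibres of a type cannot be told apart.

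**Figure D1:**
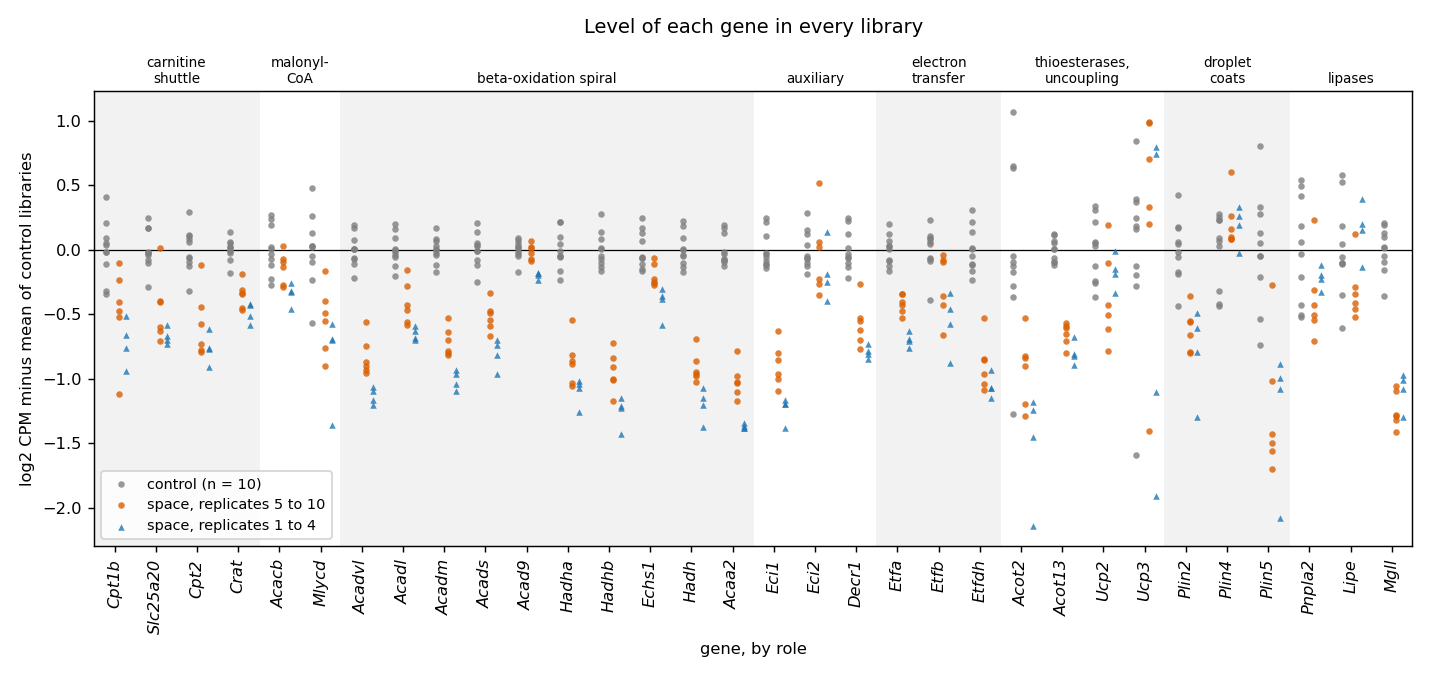
Level of the 32 genes in each library, as log2 CPM minus the mean of the 10 control libraries, ordered by role. Grey points are controls, orange points space replicates 5 to 10 and blue triangles space replicates 1 to 4; the spiral enzymes from *Hadha* to *Acaa2* sit below 0 in all 10 space libraries, and *Ucp3* spreads widely in both groups.

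The libraries moved largely as a block. The median over the 32 genes of log2 CPM minus the control mean lay between -0.18 and 0.23 in control libraries. It lay between -0.88 and -0.70 in space replicates 1 to 4 and between -0.77 and -0.31 in space replicates 5 to 10. Every space library was thus below every control library by this measure. Space replicate 5 had the highest level within its group for 24 of the 32 genes, and space replicate 4 the lowest for 16. Among controls, replicate 5 was highest for 21 genes and replicate 6 lowest for 16.

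RefSeq promoter sequences (build GRCm38.p6, 250 bases before to 50 bases after each start) were at hand for 26 of the 32 genes, and not for *Acaa2*, *Decr1*, *Acot13*, *Acad9*, *Cpt1b* and *Crat*. Fatty acid oxidation genes are known targets of the nuclear receptors PPAR and ERR, so the letters of their binding half-site, AGGTCA, were searched on both strands. They occurred in 7 of 26 genes (26.9%), against 18.1% of 27025 genes with a promoter entry. The 7 were *Acacb*, *Acadvl*, *Acadm*, *Echs1*, *Ucp3*, *Plin2* and *Plin5*. The longer ERR site TCAAGGTCA, which contains the half-site, was in 0 of 26 (0.466% of all genes), and AGGTCA followed after 1 base of any kind by AGGTCA again was in 0 of 26 (0.0481% of all genes). At shares this low, a count of 0 among 26 genes says nothing either way about these sites. The windows below show the half-site in capitals, or its complement TGACCT, in genes that fell and in *Ucp3*, which did not pass the test. They lie before the start and are written along the gene's strand. Not printed are the *Acadm* site, at the outer end of its promoter entry, and the sites of *Acacb* and *Plin5* at or after the start.
Acadvl, minus strand, chr11:70015485-70015540: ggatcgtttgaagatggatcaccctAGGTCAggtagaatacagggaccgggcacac
Echs1, minus strand, chr7:140116474-140116529: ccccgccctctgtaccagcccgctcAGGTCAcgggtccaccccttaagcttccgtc
Plin2, minus strand, chr4:86670247-86670302: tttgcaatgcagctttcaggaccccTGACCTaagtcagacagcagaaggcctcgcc
Plin5, minus strand, chr17:56117688-56117743: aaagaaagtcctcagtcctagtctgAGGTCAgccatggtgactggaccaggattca
Ucp3, plus strand, chr7:100472817-100472872: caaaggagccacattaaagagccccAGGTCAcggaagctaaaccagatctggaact
Ucp3, plus strand, chr7:100472922-100472977: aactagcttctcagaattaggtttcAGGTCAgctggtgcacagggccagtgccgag
*Acadvl* fell 1.92-fold, *Plin5* 2.35-fold, *Plin2* 1.62-fold, *Echs1* 1.22-fold, *Acadm* 1.77-fold and *Acacb* 1.17-fold. Promoters with the half-site thus included a large and a small fall and a gene with no call.

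All 4 genes of the carnitine shuttle fell, by 1.32-fold to 1.56-fold, where 28.9% of all tested genes fell. *Cpt2*, the inner-membrane enzyme that rebuilds acyl-CoA from acylcarnitine, ranged in controls from 59.6 CPM over a median of 74.4 to 91.0 CPM. In space libraries it ranged from 39.4 over 44.2 to 68.4 CPM, so that the groups overlapped only through the highest space library, replicate 5. The log2 fold change was -0.64 ± 0.090 (SE of the difference between group means of log2 CPM, n = 10 each; edgeR adjusted p = 1.25e-06). *Slc25a20*, the carrier that exchanges acylcarnitine for carnitine, had a mean of 93.4 ± 10.1 CPM in controls and 64.6 ± 11.5 CPM in space libraries (SD, n = 10 each). With 9 of 10 space libraries below the control mean, it passed at an edgeR adjusted p of 1.14e-05. *Crat*, which moves short acyl groups to carnitine, had a mean of 369.4 ± 21.9 CPM in controls and 279.7 ± 22.3 CPM in space libraries (SD, n = 10 each), with an edgeR adjusted p of 1.02e-07. Its highest space library held 324.3 CPM and its lowest control 325.0 CPM.

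*Cpt1b*, the muscle form of the enzyme that commits fatty acids to oxidation, was counted at an unusually low level. It held 3.42 to 5.82 CPM in controls (median 4.40) and 1.98 to 4.06 CPM in space libraries (median 3.02). The groups overlapped, and the fall was 1.49-fold (log2 fold change -0.57 ± 0.121 SE, edgeR adjusted p = 0.00023). Per kilobase of its principal transcript *Cpt1b* stood at 1.52 CPM in controls, the last of the 32 genes, against 31.5 CPM for *Cpt2*. In the GENCODE M21 annotation, 81.4% of the exonic bases of *Cpt1b* also belong to exons of *Gm44502*, a second gene model on the same strand. *Gm44502* itself held 0.444 CPM in controls and 0.321 CPM in space libraries. The sources used here do not say how reads in both models were treated, so the level of *Cpt1b* is uncertain, and the part of the shared exons in it was not tested.

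*Mlycd* and *Acacb*, which act on malonyl-CoA, the inhibitor of the shuttle's first step, also fell. *Mlycd*, which breaks malonyl-CoA down, ranged from 70.0 to 144.6 CPM in controls (median 105.5) and from 40.5 to 92.4 CPM in space libraries (median 66.7). The fall was 1.57-fold (log2 fold change -0.65 ± 0.134 SE, edgeR adjusted p = 0.000182), with the ranges overlapping. *Acacb*, the mitochondrial carboxylase that makes malonyl-CoA, ranged from 553.2 to 803.6 CPM in controls (median 660.5) and from 486.4 to 681.9 CPM in space libraries (median 555.8). Its fall was 1.17-fold (edgeR adjusted p = 0.00954) and did not pass the test without space replicates 1 to 4 (log2 fold change -0.14, edgeR adjusted p = 0.146). *Acaca*, a further carboxylase gene for malonyl-CoA that was named after its values were seen, was not called (log2 fold change -0.07, edgeR adjusted p = 0.761). Its mean was 71.9 CPM in controls and 68.7 CPM in space libraries. Without space replicates 1 to 4 *Acaca* was called lower (log2 fold change -0.36, edgeR adjusted p = 0.000589). The ratio of *Mlycd* to *Acacb* within a library leaves *Acaca* out and does not depend on scaling. Its mean log2 was -2.69 ± 0.151 in controls and -3.13 ± 0.196 in space libraries (SD, n = 10 each), a difference of -0.44 ± 0.078 SE (2-sided permutation test, p = 4e-05, adjusted p = 0.00012 over 18 pairs of genes).

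Of the roles compared, the spiral enzymes had the lowest median. Of 10 genes, 9 fell, against 28.9% of all tested genes, with a median log2 fold change of -0.88. In 7 every space library lay below every control, against 11.0% of all tested genes. *Acaa2*, the thiolase that splits off acetyl-CoA, held 175.9 to 220.0 CPM in controls (median 185.5) and 73.5 to 111.4 CPM in space libraries (median 87.3). Every space library was below the lowest control, and the fall was 2.22-fold (log2 fold change -1.15 ± 0.076 SE, edgeR adjusted p = 2.93e-12). *Hadhb* and *Hadha* encode the subunits of the trifunctional protein, which carries out the last 3 steps on long chains. *Hadhb* went from 453.1 to 613.0 CPM (median 499.0) down to 188.8 to 307.3 CPM (median 239.9), a 2.08-fold fall (edgeR adjusted p = 1.81e-11). *Hadha* went from 518.8 to 708.8 CPM (median 600.2) down to 256.1 to 419.6 CPM (median 300.5), a 1.94-fold fall (edgeR adjusted p = 8.42e-11). Neither gene's groups overlapped. *Hadh*, the dehydrogenase for shorter chains, held 200.1 to 263.1 CPM in controls (median 221.7) and 86.8 to 139.5 CPM in space libraries (median 112.4), and fell 2.03-fold (edgeR adjusted p = 7.54e-12).

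The acyl-CoA dehydrogenases, which start each turn and differ in the chain length they accept, fell to different extents. The very-long-chain enzyme *Acadvl* held 307.8 to 408.6 CPM in controls (median 359.3) and 155.1 to 242.8 CPM in space libraries (median 186.4). It fell 1.92-fold (edgeR adjusted p = 4.55e-11). In the annotation 42.9% of its exonic bases lie opposite exons of *Dvl2*, which held 6.71 CPM in controls and 7.74 CPM in space libraries. With the strand setting unknown, reads of both genes cannot be told apart there. The medium-chain enzyme *Acadm* fell 1.77-fold, from a mean of 444.1 ± 30.2 CPM to 251.0 ± 31.3 CPM (SD, n = 10 each), again with no overlap. The short-chain enzyme *Acads* fell 1.55-fold and the long-chain enzyme *Acadl*, whose groups overlapped, 1.42-fold. Within a library the ratio of *Acadvl* to *Acads* was lower in all 10 space libraries than in any control. Its mean log2 was 2.85 ± 0.077 in controls and 2.53 ± 0.090 in space libraries (SD, n = 10 each; 2-sided permutation adjusted p = 7.2e-05, from p = 2e-05, the smallest that 100000 resamples can give). *Acadvl* also fell by more than *Acadm* (difference in mean log2 ratio -0.12 ± 0.032 SE, permutation adjusted p = 0.00356).

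*Echs1*, the short-chain hydratase of the second step, fell 1.22-fold from a control median of 95.01 CPM to a space median of 82.3 CPM, with overlapping groups (edgeR adjusted p = 0.000309). *Acad9*, a dehydrogenase best known as an assembly factor of respiratory complex I, held 18.3 to 22.02 CPM in controls (median 20.8) and 17.5 to 21.6 CPM in space libraries (median 19.5). It did not pass the test (log2 fold change -0.09 ± 0.042 SE, edgeR adjusted p = 0.0987), with 7 of 10 space libraries below the control mean. Without control replicate 4 (edgeR adjusted p = 0.0415) or space replicate 5 (edgeR adjusted p = 0.0478) it passed, at a log2 fold change of -0.11 and -0.10. Space replicates 1 to 4 held 17.5 to 18.2 CPM and space replicates 5 to 10 held 19.4 to 21.6 CPM, and without the former the log2 fold change of *Acad9* was -0.01.

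**Figure D2:**
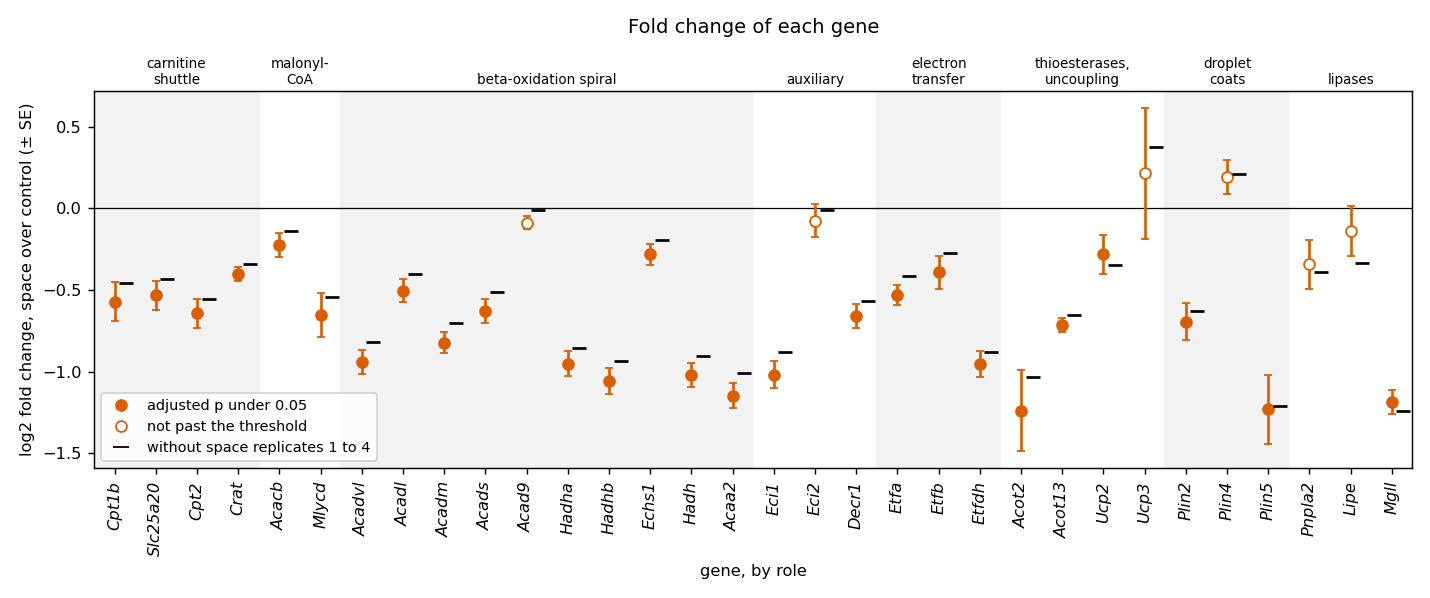
Log2 fold change of each gene, space over control, with the SE of the difference between group means of log2 CPM (10 libraries each). Filled circles passed an adjusted p of 0.05, open circles did not, and dashes give the value without space replicates 1 to 4; every enzyme of the spiral lies below 0 in the full comparison, with *Acaa2* lowest at -1.15 and *Acad9* closest to 0 at -0.09.

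The auxiliary enzymes handle double bonds of unsaturated fatty acids, and the pair of isomerases split. *Eci1*, the mitochondrial isomerase, held 122.9 to 160.7 CPM in controls (median 131.4) and 51.8 to 87.4 CPM in space libraries (median 65.5). The groups did not overlap and the fall was 2.03-fold (log2 fold change -1.02 ± 0.083 SE, edgeR adjusted p = 1.92e-10). *Eci2*, an isomerase found in both mitochondria and peroxisomes, held 46.6 to 64.5 CPM in controls (median 51.0) and 40.2 to 75.7 CPM in space libraries (median 45.9). Its groups overlapped and it did not pass the test (log2 fold change -0.07 ± 0.0997 SE, edgeR adjusted p = 0.524), with a log2 value of 0.008 when scaled by library size alone. The log2 ratio of *Eci1* to *Eci2* was 1.35 ± 0.065 in controls and 0.42 ± 0.218 in space libraries (SD, n = 10 each), a difference of -0.94 ± 0.072 SE (permutation adjusted p = 7.2e-05). No space library reached the lowest control ratio. *Decr1*, the reductase of the same branch, went from 144.1 ± 15.6 CPM in controls to 91.3 ± 11.9 CPM in space libraries (SD, n = 10 each). It fell 1.58-fold with no overlap (edgeR adjusted p = 2.09e-08).

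All 3 electron transfer genes fell, where 28.9% of all tested genes fell. *Etfdh*, the membrane enzyme that passes electrons on to ubiquinone, held 211.3 to 308.3 CPM in controls (median 245.3) and 112.3 to 172.8 CPM in space libraries (median 124.5). It fell 1.94-fold (log2 fold change -0.95 ± 0.080 SE, edgeR adjusted p = 1.97e-10). *Etfa*, the alpha subunit of the flavoprotein itself, held 180.2 to 232.3 CPM in controls (median 204.4) and 118.9 to 159.2 CPM in space libraries (median 142.4). It fell 1.44-fold (edgeR adjusted p = 3.73e-08). Neither gene's groups overlapped, and *Etfdh* fell by more than *Etfa* (difference in mean log2 ratio -0.42 ± 0.047 SE, permutation adjusted p = 7.2e-05).

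*Etfb*, the beta subunit, held only 4.58 to 7.06 CPM in controls (median 6.22) and 3.24 to 5.83 CPM in space libraries (median 4.55). It fell 1.31-fold (edgeR adjusted p = 0.00141), with overlapping groups. Per kilobase of principal transcript it stood at 6.77 CPM in controls, against 145.5 CPM for *Etfa*, although the subunits pair with each other in the flavoprotein. As for *Cpt1b*, part of its exons belongs to a second gene model. *Gm45233*, on the same strand, covers 53.0% of its exonic bases and was counted at 0.0470 CPM in controls and 0.0467 CPM in space libraries. The level of *Etfb* is uncertain for that reason, and the part of the shared exons was not tested.

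Per kilobase of principal transcript, *Hadhb* (248.5 CPM), *Acadl* (222.0 CPM), *Acadm* (217.0 CPM), *Acadvl* (165.7 CPM) and *Hadha* (153.0 CPM) had the highest control levels of the 32 genes. The lowest were *Lipe* (13.8 CPM), *Etfb*, *Acad9* (5.25 CPM), *Ucp2* (4.10 CPM) and *Cpt1b*. The same 5 genes came last, in the same order, when all annotated exonic bases were used as the length, whereas *Acadl* then came first and *Hadhb* eighth.

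The thioesterases, which free fatty acids from acyl-CoA, both fell, with very different spread. *Acot13* held 37.5 to 44.4 CPM in controls (median 40.9) and 21.8 to 27.4 CPM in space libraries (median 25.1). It was among the tightest of the 32 genes, and it fell 1.64-fold with no overlap (log2 fold change -0.72 ± 0.045 SE, edgeR adjusted p = 4.28e-12). *Acot2*, the mitochondrial long-chain thioesterase, held 25.8 to 131.5 CPM in controls (median 58.1) and 14.1 to 43.3 CPM in space libraries (median 27.4). It fell 2.36-fold with overlapping groups (log2 fold change -1.24 ± 0.250 SE, edgeR adjusted p = 0.000266). *Acot2* resembles its neighbour *Acot1* closely, a gene named for that likeness and not by its change, with a control mean of 9.42 CPM and a space mean of 9.36 CPM (edgeR adjusted p = 0.984). No source used here says how reads matching both were assigned, so the value of *Acot2* is uncertain. The ratio of *Acot2* to *Acot13* did not pass the test (difference in mean log2 -0.45 ± 0.239 SE, permutation adjusted p = 0.116). It passed without control replicate 8 (difference -0.59, exact permutation adjusted p = 0.0103).

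The uncoupling proteins are carriers of the mitochondrial inner membrane, and *Ucp3* is the muscle form, induced when fatty acid supply rises. *Ucp3* held 30.0 to 162.5 CPM in controls (median 102.3) and 24.2 to 180.8 CPM in space libraries (median 131.2). It had the widest spread of the 32 genes in space libraries, with an SD of 1.08 log2 units there and 0.65 in controls, and it missed the threshold (edgeR adjusted p = 0.62 at a log2 fold change of 0.22 ± 0.400 SE, and 0.372 at 0.38 without space replicates 1 to 4). Space replicates 1, 4 and 7 held 42.3, 24.2 and 34.2 CPM and the other 7 space libraries 103.9 CPM or more. *Ucp2*, which is found in many cell types and is prominent in macrophages, held 12.5 to 20.5 CPM in controls (median 16.6) and 9.35 to 18.4 CPM in space libraries (median 13.4). Its 1.22-fold fall was borderline (edgeR adjusted p = 0.039). Without space replicates 1 to 4 the adjusted p was 0.0554, and the call was also lost when any 1 of 11 libraries was left out, namely control replicates 1, 2, 4, 6, 7 and 9 and space replicates 1, 6, 7, 8 and 10 (edgeR adjusted p of 0.0512 to 0.0745). It was lost too with upper-quartile scaling (edgeR adjusted p = 0.102), library size alone (0.178), no filter on low counts (0.0804) and a filter at 1 CPM in 10 libraries (0.052). The 12 macrophage markers summed to 56.0 to 109.9 CPM in controls and 75.9 to 154.9 CPM in space libraries. Of 11 tested, 4 rose, where 28.7% of all tested genes did, and 2 rose without space replicates 1 to 4. Their part in the level of *Ucp2* was not tested.

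Lipid droplet genes went separate ways. Of the 3 perilipins, which coat the droplet, *Plin5* and *Plin2* fell and *Plin4* did not pass the test. *Plin5*, which ties droplets to mitochondria in oxidative tissue, held 25.9 to 75.7 CPM in controls (median 43.4) and 10.2 to 35.8 CPM in space libraries (median 18.3). Of the space libraries, replicate 5 alone was above the lowest control, and the fall was 2.35-fold (log2 fold change -1.23 ± 0.212 SE, edgeR adjusted p = 5.87e-05). *Plin2*, the coat found on droplets in most cells, held 23.3 to 42.5 CPM in controls (median 31.9) and 12.8 to 24.6 CPM in space libraries (median 20.3), a 1.62-fold fall (edgeR adjusted p = 6.04e-06). *Plin4*, by far the most abundant of the 3, held 489.4 to 803.3 CPM in controls (median 701.3) and 654.1 to 1007.9 CPM in space libraries (median 750.1), and 9 of 10 space libraries lay above the control mean. It did not pass the test (log2 fold change 0.19 ± 0.106 SE, edgeR adjusted p = 0.0953). It passed with upper-quartile scaling (edgeR adjusted p = 0.0263) and with library size alone (edgeR adjusted p = 0.0158). The replicate block gave the same call (edgeR adjusted p = 0.0476).

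Ratios set the perilipins apart from each other whatever the scaling. The log2 ratio of *Plin5* to *Plin4* went from -3.94 ± 0.264 in controls to -5.40 ± 0.423 in space libraries (SD, n = 10 each). The difference was -1.46 ± 0.158 SE, with no overlap between groups (permutation adjusted p = 7.2e-05). *Plin5* also fell by more than *Plin2* (difference in mean log2 ratio -0.56 ± 0.149 SE, permutation adjusted p = 0.0044), with overlapping groups. Against the lipase gene *Pnpla2*, whose product it holds at the droplet, the log2 ratio of *Plin5* went from -2.72 ± 0.203 to -3.66 ± 0.359 (SD, n = 10 each; permutation adjusted p = 7.2e-05), with no overlap.

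**Figure D3:**
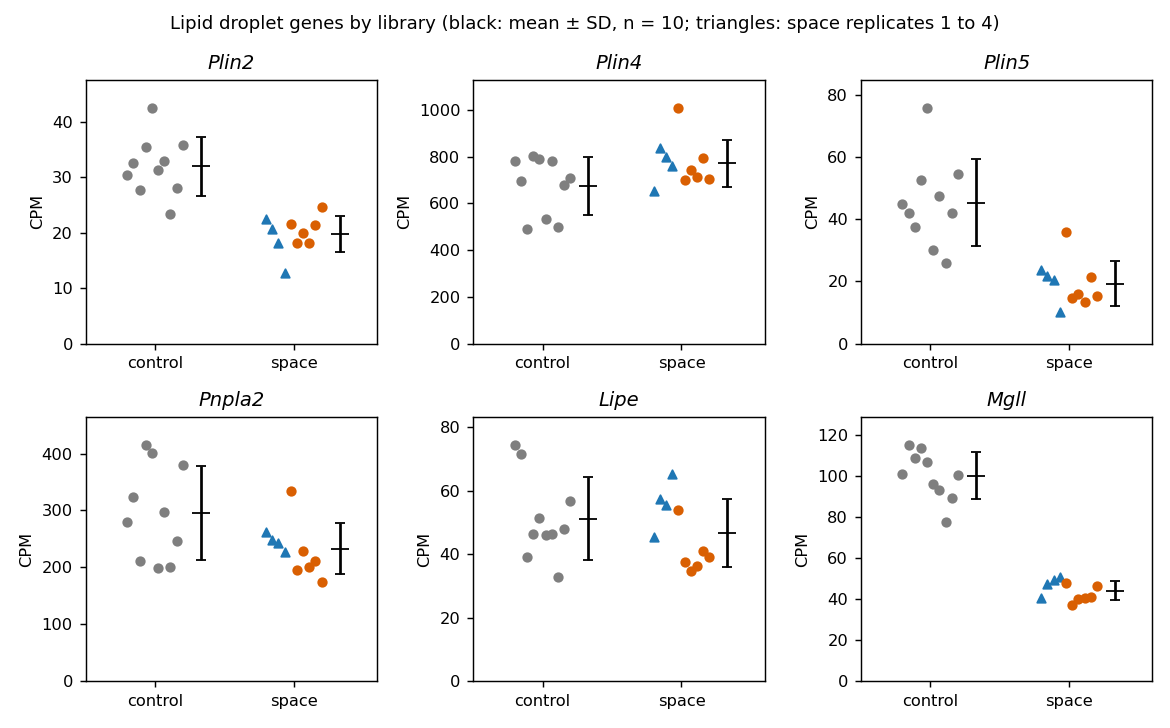
CPM of the 6 lipid droplet genes in each library, on linear axes that start at 0, with mean ± SD (n = 10) in black. Grey points are controls, orange points space replicates 5 to 10 and blue triangles space replicates 1 to 4; *Mgll* separates the groups fully, while *Pnpla2* and *Lipe* overlap.

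Triglyceride is broken down in turn by the lipases encoded by *Pnpla2* (ATGL), *Lipe* (hormone-sensitive lipase) and *Mgll* (monoglyceride lipase), and of these only *Mgll* passed the test. *Mgll* held 77.4 to 114.8 CPM in controls (median 100.6) and 37.2 to 50.6 CPM in space libraries (median 43.7). The groups did not overlap and it fell 2.27-fold, or -1.18 ± 0.074 (SE) on the log2 scale, with the smallest edgeR adjusted p of the 32 genes, 9.17e-13. All 10 space libraries thus lay well under the lowest control. *Pnpla2* held 198.9 to 414.4 CPM in controls (median 287.7) and 174.5 to 334.5 CPM in space libraries (median 228.1). It lay just outside the threshold (log2 fold change -0.34 ± 0.153 SE, edgeR adjusted p = 0.0538). It passed with DESeq2 (adjusted p = 0.0296), with limma-voom (adjusted p = 0.0477), and in edgeR without control replicates 3, 6, 8 or 9 or space replicate 5 (adjusted p of 0.0183 to 0.0461). *Lipe* held 32.7 to 74.4 CPM in controls (median 47.1) and 34.7 to 65.4 CPM in space libraries (median 43.2) and did not pass the test (log2 fold change -0.14 ± 0.153 SE, edgeR adjusted p = 0.452). Of its exonic bases 15.6% lie opposite *4732471J01Rik*, which held 2.75 CPM in controls and 2.82 CPM in space libraries. *Mgll* fell by more than *Pnpla2* (difference in mean log2 ratio of *Pnpla2* to *Mgll* 0.87 ± 0.134 SE, permutation adjusted p = 0.000154), with ranges that overlapped narrowly. The ratio of *Pnpla2* to *Lipe* did not pass (-0.19 ± 0.153 SE, permutation adjusted p = 0.271).

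The lipases, *Plin4* and *Plin2* are expressed in fat cells as well as in fibres. *Lipe* stood at 45.5 to 65.4 CPM in space replicates 1 to 4, where adipocyte markers were highest, and at 34.7 to 54.1 CPM in space replicates 5 to 10. In the same order, mean levels were 245.1 and 224.3 CPM for *Pnpla2* and 46.9 and 42.1 CPM for *Mgll*. *Plin4* and *Plin2* were slightly lower in space replicates 1 to 4, with means of 761.9 and 777.1 CPM and of 18.55 and 20.63 CPM. Without space replicates 1 to 4 the log2 fold change of *Lipe* was -0.34 (edgeR adjusted p = 0.103). That of *Pnpla2* was -0.39 (edgeR adjusted p = 0.114) and that of *Plin4* 0.21 (edgeR adjusted p = 0.17). For *Mgll* it was -1.24 (edgeR adjusted p = 1.72e-10) and for *Plin2* -0.63 (edgeR adjusted p = 8.27e-05). *Plin1*, the perilipin of adipocytes, named here for its cell type and not by its change, held 4.28 to 34.8 CPM in controls, 26.0 to 57.4 CPM in space replicates 1 to 4 and 3.97 to 23.7 CPM in space replicates 5 to 10. The part of fat cells in these levels was not tested.

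**Figure D4:**
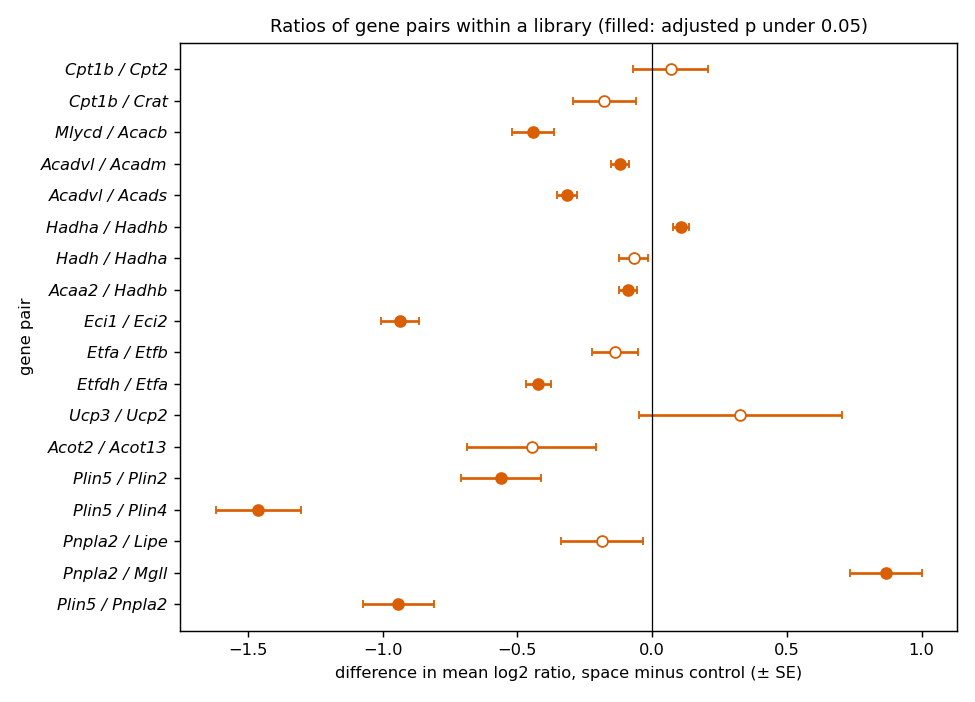
Difference between groups in the mean within-library log2 ratio of 18 gene pairs, space minus control, with its SE (10 libraries each). Filled circles passed a permutation test at an adjusted p of 0.05; 11 pairs did, from *Plin5* to *Plin4* at -1.46 to *Pnpla2* to *Mgll* at 0.87.

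Of the 18 ratios, 11 passed the permutation test and 9 did so without space replicates 1 to 4. Pairs of the trifunctional protein and its neighbouring thiolase differed little. *Hadha* fell by slightly less than *Hadhb* (difference in mean log2 ratio 0.11 ± 0.029 SE, permutation adjusted p = 0.0049), a call lost without space replicates 1 to 4 (0.08, exact permutation adjusted p = 0.0791). That of *Acaa2* to *Hadhb* (-0.09 ± 0.034 SE, permutation adjusted p = 0.0285) was lost without those 4 libraries (-0.07, exact permutation adjusted p = 0.0817), without control replicate 4 (exact permutation adjusted p = 0.054) and without space replicate 1 (exact permutation adjusted p = 0.0546). The ratios of *Hadh* to *Hadha* (-0.07 ± 0.053 SE), *Etfa* to *Etfb* (-0.14 ± 0.084 SE), *Cpt1b* to *Cpt2* (0.07 ± 0.139 SE), *Cpt1b* to *Crat* (-0.18 ± 0.116 SE) and *Ucp3* to *Ucp2* (0.33 ± 0.377 SE) did not pass.

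Other genes of fatty acid and droplet metabolism are set here against the shares over all tested genes, 28.9% lower and 28.7% higher. Of 37 further mitochondrial fatty acid genes tested, 20 fell and 7 rose, with a median log2 fold change of -0.20. By smallest p, *Acss1*, which activates acetate in mitochondria, fell 2.92-fold, *Acsl6*, a long-chain acyl-CoA synthetase, rose 2.36-fold, the acetoacetyl-CoA thiolase *Acat1* fell 1.47-fold and *Hsdl2* fell 1.81-fold. *Acadsb* and *Acad8*, relatives of the spiral's dehydrogenases that act on branched chains from amino acids and were named after their values were seen, rose 1.16-fold each (edgeR adjusted p = 6.4e-05 and 0.000332). Of 23 peroxisomal genes tested, 16 fell and 4 rose, with a median of -0.35. Among them *Ech1*, an isomerase of unsaturated acyl-CoA, fell 2.05-fold, the CoA hydrolase *Nudt7* fell 2.32-fold and the transporter *Abcd2* rose 1.79-fold.

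Of 35 further droplet and glycerolipid genes tested, 13 fell and 9 rose, with a median of -0.05, and both counts were near the shares over all tested genes. By smallest p, *Vps13d*, a lipid transfer protein, rose 1.32-fold, *Cidea*, a droplet fusion protein, fell 2.40-fold from 3.37 CPM, the phosphatidate phosphatase *Lpin1* rose 1.54-fold and the diacylglycerol lipase *Daglb* fell 1.33-fold. Some partners of ATGL were named after their values were seen. Its activator *Abhd5* fell 1.17-fold (edgeR adjusted p = 2.66e-05) and its inhibitor *G0s2* 2.29-fold (edgeR adjusted p = 0.00438). Another inhibitor, *Hilpda*, did not pass the test (log2 fold change -0.18, edgeR adjusted p = 0.239). Of 21 regulators tested, 6 fell and 8 rose, again near those shares. *Ppara* fell 3.86-fold, from 68.2 to 17.7 CPM, *Esrrg* 3.83-fold, from 242.8 to 63.5 CPM, and *Esrrb* 1.90-fold. These encode nuclear receptors that bind near fatty acid oxidation genes. Other nuclear receptor genes among the regulators, named after their values were seen, went both ways. *Ppard* and *Rxra* rose 1.39-fold each (edgeR adjusted p = 2.78e-09 and 3.43e-11), while *Esrra* fell 1.62-fold (edgeR adjusted p = 2.12e-10). *Pparg* and *Rxrg* were not called (edgeR adjusted p = 0.648 and 0.292). Without space replicates 1 to 4 *Pparg* was called lower (log2 fold change -0.46, edgeR adjusted p = 0.0394) and *Rxrg* was not called (edgeR adjusted p = 0.918). The part of these receptors in the falls was not tested. *Prkag3*, the AMP kinase subunit of fast fibres, rose 5.18-fold. The genes named by smallest p had an edgeR adjusted p of 1.82e-07 or less. Over all 115 such genes, 55 fell and 27 rose.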

How the data were processed

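Soleus RNA of 10 control and 10 space libraries was analysed from a table of unnormalized counts for each Ensembl gene that the authors deposited. Per the labels' protocols, libraries were made from 90 ng of total RNA after rRNA removal and sequenced as read pairs. Per the submitters' processing notes, MultiQC 1.15, Subread, featureCounts 1.5.1, edgeR and build GRCm39 were used. No source used here states the strand setting, annotation release or treatment of shared reads. Columns were matched to samples by the library code in the descriptions, and 0 columns were left out.

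Symbols came from GENCODE M21 (GRCm38), matched by Ensembl identifier for 51948 of 56941 rows (97.6% of counts). No coordinates of that annotation are printed. Transcript lengths and shared exons were taken from it. In R 4.3.3 with edgeR 4.0.16, genes were filtered with filterByExpr (minimum count 10, minimum total 15), scaled by TMM and tested with robust quasi-likelihood fits, with Benjamini-Hochberg adjustment over all tested genes at 0.05. log2 CPM used a prior count of 2. Ratios of gene pairs used counts plus 0.5 and 2-sided permutation tests with 100000 resamples (scipy 1.17.1); where libraries were left out, exact tests counted differences at least as large in absolute size. The tests were checked on simulated data. Motifs were counted per gene over all its listed promoters.

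All 32 genes are named, with up to 4 genes of each other pathway list by smallest p; the exceptions are marked in the text, and 1 gene is not reported here. Members and lists were chosen with earlier results of these data known. Alternatives were DESeq2 1.42.0, limma 3.58.1 voom with quality weights, other scalings and filters, thresholds, a replicate block and each library left out. The comparison without space replicates 1 to 4 was added after seeing the data.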

Additional observations from a re-analysis of the deposited data

Results flagged for a closer look

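In space replicate 5, 7 genes stood far above the other 9 space libraries, by Dixon's test of the gap to the next library against the range. *Slc25a20* stood there at 93.8 CPM, *Cpt2* at 68.4 CPM, *Eci2* at 75.7 CPM, *Decr1* at 119.1 CPM, *Etfdh* at 172.8 CPM, *Plin4* at 1007.9 CPM and *Plin5* at 35.8 CPM. No other library was far apart in any of the 64 sets of 10 values checked. Chance alone gives such a gap in about 1 of 20 sets, and these 7 come from the same library, so they are not independent of each other. Even so, 23 of the 32 genes lay below the control mean in that library.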

How the results depend on the processing

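Sign and call stayed the same in every alternative run for 24 of the 32 genes; the exceptions were *Acacb*, *Acad9*, *Echs1*, *Eci2*, *Etfb*, *Ucp2*, *Plin4* and *Pnpla2*. *Eci2* changed sign with library size alone (log2 fold change 0.008). The number of genes raised went from 0 to 1, *Plin4*, with upper-quartile factors, with library size alone (each 1) and with the replicate block (1). Against a fold of 1.2, 4864 of all tested genes were called in either direction in place of 9663, and 14 of the other pathway genes rose in place of 27. Of the 32 genes 22 fell against that fold, and the share of all tested genes that fell against it is not given here. *Acacb*, *Echs1*, *Etfb* and *Ucp2* were not called (edgeR adjusted p = 0.751, 0.372, 0.0963 and 0.434). With single libraries left out, 25 to 28 of the 32 genes fell and 0 rose, 52 to 56 other pathway genes fell and 26 to 28 rose, 9398 to 9643 of all tested genes were called, and 10 to 12 pair ratios passed. Library size alone moved the median log2 fold change of all tested genes from 0.02 to 0.10. Sample numbers did not pair the libraries: deviations of same-numbered libraries correlated at -0.132 to 0.0982, and 0 of 20 libraries correlated best with their own number. With the number as a replicate block, 27 of the 32 genes fell, *Pnpla2* among them (edgeR adjusted p = 0.0389), the number of all tested genes called was 9470, and 11 gene pair ratios passed.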

Other observations

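The 4 libraries with the lowest *Ucp3* were control replicate 8 and space replicates 1, 4 and 7. The same 4 libraries also held the 4 lowest values of *Pdk4*, the kinase that shuts off pyruvate dehydrogenase when fat is burned, a gene chosen after its values were seen. *Pdk4* stood at 786.3 CPM in control replicate 8 and at 544.4, 660.1 and 1034 CPM in space replicates 1, 4 and 7, against 1776 to 3562 CPM in the other 16 libraries. Between the groups *Pdk4* did not pass the edgeR test (log2 fold change -0.37, adjusted p = 0.328). *Angptl4*, a secreted inhibitor of lipoprotein lipase that was also chosen after its values were seen, had 3 of its 4 lowest values in these libraries. The thioesterase gene *Acot1*, chosen likewise, had 2 of its 4 lowest values there, and space replicate 1 ranked 17 of 20 from the lowest. No test was made of this pattern.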
